A study of Homo sapiens with 12 samples.

Results

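The loci described here are 38 human genes of epithelial cell junctions and keratins, listed by name and role. The rule uses no measured value, but the list was drawn up with earlier results of these data known. They comprise 5 genes of cell-cell adhesion and the adherens junction, 13 of the tight junction, 8 of the desmosome and the cornified envelope plakins, 4 keratins, 4 of the hemidesmosome and its laminin, and 4 regulators of epithelial splicing, transcription and polarity. A region of open chromatin belonged to a gene when it overlapped the GENCODE 44 gene body or the 5 kb on either side of it on hg38. This gave 102 of the 30170 regions in the series, at 34 of the 38 genes, and left CDH1, DSC2, KRT80 and MARVELD3 with 0 regions. Of the 102, 53 lay within 1 kb of the 5′ end of a protein-coding transcript of their gene and are called start regions, 34 lay wholly in introns, and 15 lay elsewhere.

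Chromatin accessibility was measured by ATAC-seq, in which the transposase Tn5 cuts and tags open DNA, in HCT116, an established colorectal carcinoma line. All 12 libraries came from stable derivatives of HCT116, 3 for each of 4 groups. EV cells received empty vector. EHF cells were transfected with an EHF expression plasmid and geneticin-resistant clones were selected, CDX1 cells were transduced with a CDX1 retrovirus and sorted for GFP, and EHF+CDX1 cells were the CDX1 line transfected in turn with EHF and again selected as resistant clones. EHF is an ETS-family transcription factor of epithelia and CDX1 an intestinal homeobox transcription factor. The lines therefore differ in selection and clonal history as well as in the introduced factor, and these cannot be told apart. Nothing in the labels says whether libraries of a group came from separate cultures, so p-values measure the spread between these libraries, which may be technical.

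Epithelial cells are held together by junctions stacked along the lateral membrane. Tight junctions, built from claudins, occludin and the scaffold proteins ZO-1 and ZO-3 (genes TJP1 and TJP3), seal the space between cells. Adherens junctions join E-cadherin to actin through the catenins, desmosomes join desmosomal cadherins through plakoglobin, plakophilins and desmoplakin to keratin filaments, and hemidesmosomes anchor the same filaments to laminin in the basement membrane. Keratins 8, 18 and 19 are the filaments of simple epithelia such as the colon, and these genes are commonly lost or lowered when carcinoma cells lose epithelial character.

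The depth of the libraries was low and uneven. Totals ran from 567366 to 2443334 counts, but regions that match mitochondrial DNA took 65.0% to 73.8% of the EV counts and 14.5% to 37.2% of the counts in the other groups, and exons of the introduced genes took up to 78.4%. None of the 102 regions was of either kind. Together they held 272 to 657 counts in an EV library, 356 to 1125 in a single-factor library and 729 to 2953 in the double line. The deepest, EHF+CDX1 replicate 2, stood apart: its median region of the whole table had 22 counts, while the medians of the other 11 libraries ran from 2 to 11. Replicate 2 had the highest such median of each group, at 6 in EV, 11 in EHF and 9 in CDX1. Exons of the introduced genes took 9.99% of the counts of EHF+CDX1 replicate 2, against 61.1% and 60.0% in replicates 1 and 3. Each call at these loci is therefore also given without EHF+CDX1 replicate 2. Of the epithelial markers, CDX2, EPCAM and KRT8 had start regions with counts in every library, VIL1 and KRT18 had 0 counts in 4 and 1 libraries, and CDH1 had no start region. None of 10 blood cell genes had a start region, and 4 of 15 mesenchymal genes did.

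The regions that carried a significant change among these loci were 4, each of 151 bases, and their hg38 plus-strand sequences are shown because the results turn on them. Capitals mark matches, on either strand, to the letters searched: ETS core AGGAAGT or CGGAAGT, CDX core TTTATG or TTTATT, E-box CAGGTG, grainyhead-like AACNNGTT and AP-1 TGANTCA. Coordinates were read as 1-based with both ends included. If the deposited starts count from 0, the first base of each falls outside the region, and no match uses that base. No sequence is shown for the start of CDH1, the E-cadherin gene, because the nearest region lay 7.88 kb beyond the gene.
DSP intron 4, chr6:7561354-7561504: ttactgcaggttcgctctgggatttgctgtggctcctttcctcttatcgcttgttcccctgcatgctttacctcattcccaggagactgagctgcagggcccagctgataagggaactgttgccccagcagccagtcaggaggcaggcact
CLDN4 upstream start, chr7:73828301-73828451: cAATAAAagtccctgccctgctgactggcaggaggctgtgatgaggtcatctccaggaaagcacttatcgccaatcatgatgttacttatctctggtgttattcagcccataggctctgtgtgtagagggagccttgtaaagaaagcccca
LLGL2 intron 3, chr17:75557650-75557800: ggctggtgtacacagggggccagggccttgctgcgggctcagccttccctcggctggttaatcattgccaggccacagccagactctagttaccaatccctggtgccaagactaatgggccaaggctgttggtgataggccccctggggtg
CLDN1 intron 1, chr3:190319796-190319946: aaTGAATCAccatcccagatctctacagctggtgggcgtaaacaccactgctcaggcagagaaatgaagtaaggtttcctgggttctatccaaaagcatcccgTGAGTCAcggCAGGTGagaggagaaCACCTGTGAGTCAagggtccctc

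The DSP and LLGL2 sequences held none of the letters searched. The CLDN4 sequence held 1 CDX core match on the minus strand at bases 2 to 7, and the CLDN1 sequence held 3 AP-1 matches, which begin at bases 3, 104 and 135, and 2 E-box matches, at bases 114 to 119 and 129 to 134. Among all 17356 regions of 151 bases, 8.19% held the ETS core, 17.9% the CDX core, 16.5% the E-box, 3.19% the grainyhead-like letters and 18.5% AP-1.

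Starting accessibility differed widely between the gene starts. In EV cells, counts per 1000000 (CPM, with library totals scaled by TMM, which sets most regions of the libraries level) per kb of start region were highest at ESRP1, an epithelial splicing regulator, at 60.3 ± 5.27 (SD, n = 3), followed by CTNND1, the p120-catenin gene, at 57.1 ± 24.1, and LAMB3, a laminin-332 chain, at 53.5 ± 12.6. These 3 neighbours in the order lay within their spread. The lowest were CLDN1, the claudin-1 gene, at 9.48 ± 9.22, TJP1 at 10.3 ± 10.9 and KRT18 at 12.8 ± 14.8 CPM per kb, whose SDs were about as large as their means. KRT18 and KRT8, which pair in simple-epithelial filaments, are neighbouring genes, and the only KRT18 region was shared with KRT8.

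Summed over the 102 regions, the double line had 566, 670 and 607 CPM. EV libraries had 460, 453 and 410 CPM, EHF libraries 501, 458 and 482, and CDX1 libraries 476, 496 and 422, so the 3 EHF+CDX1 libraries lay above the other 9. The same held for the summed gene starts, at 352, 398 and 365 CPM in EHF+CDX1 against 256 to 322 in the other 9 libraries, and for the summed introns, at 153, 202 and 151 CPM against 86.5 to 126. The gene-start sum counts the region shared by KRT8 and KRT18 under both. EHF+CDX1 replicate 2 was the highest library in all 3 sums. The separation over the 102 regions depended on the scaling. As a percentage of counts neither mitochondrial nor introduced, these regions held 0.254, 0.324 and 0.287 in EHF+CDX1 libraries. By that measure CDX1 replicate 2, at 0.257, lay above EHF+CDX1 replicate 1. Mitochondrial share also separated EV from the other groups, and its part in these sums was not tested. ATAC-seq of bulk cells cannot separate more cells with an open locus from a more open locus in each cell.

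**Figure D1:**
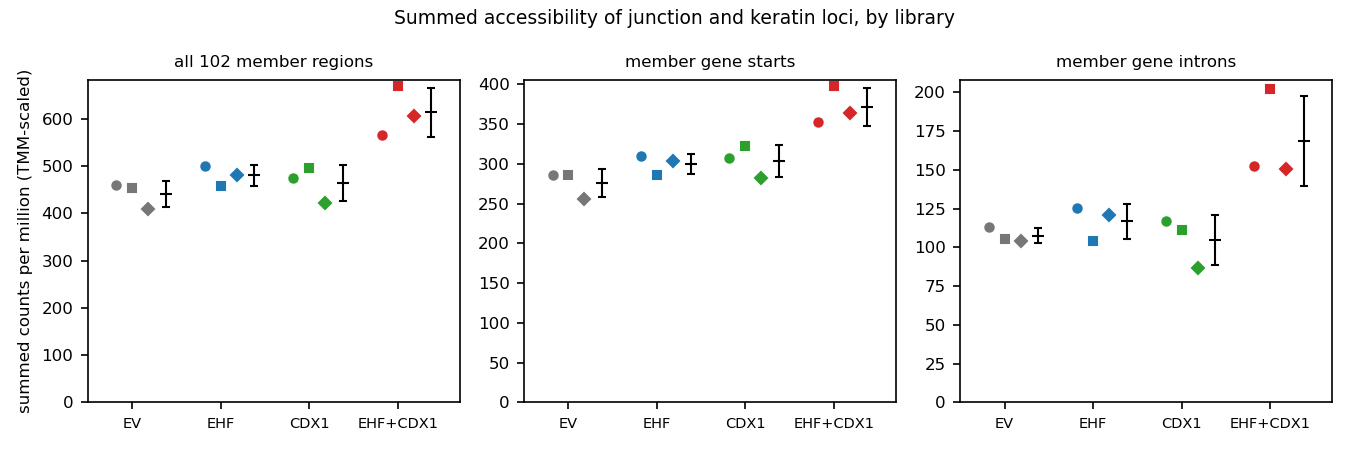
Summed TMM-scaled CPM over all member regions, member gene starts and member introns in each library (circle, square and diamond for replicates 1, 2 and 3; black dash and bar for mean and SD, n = 3). Under this scaling the 3 EHF+CDX1 libraries lie above the other 9 in each panel, with 566 to 670 CPM over all 102 regions against 410 to 501. The gene-start sum counts the region shared by KRT8 and KRT18 under both.

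To ask whether both factors together opened these loci, EHF+CDX1 cells were compared with EV. Few single loci passed the test: 1 of 102 regions (in DSP), 1 of 32 genes with tested start regions (CLDN4) and 2 of 19 genes with tested introns (DSP and EPCAM), all higher in EHF+CDX1. Over the whole genome the same test of edgeR called 2.59% of regions, 1.36% of gene starts and 5.53% of gene introns, so the members' shares, which rest on 1 or 2 calls at each level, lay on both sides of those of all features. At an unadjusted p under 0.05 there were 15 regions, 7 gene starts and 7 gene introns. DESeq2 called 0 at each level, but gave no adjusted p for the CLDN4 starts, the DSP region or the DSP introns, so of these calls only that of EPCAM introns was lost with a value (adjusted p = 0.097). Without EHF+CDX1 replicate 2 the count was 0 at each level.

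The shift was broader than the calls. The median log2 fold change of EHF+CDX1 over EV was 0.66 for the 102 member regions against 0.18 for all regions, 0.47 against 0.18 for gene starts and 0.65 against 0.11 for introns. All of these members passed the filter on low values, but 12 regions and 4 sets of introns (DSP, CLDN1, PKP2 and LAMB3) reached it in EHF+CDX1 libraries alone. Such features were thereby selected to be high there. The calls at DSP were of this kind. The same was true of 10.8% of all regions and 7.29% of all introns tested. Among the features that other libraries also carried past the filter, the member and whole-table medians were 0.48 and 0.06 for regions and 0.29 and 0.03 for introns. Of the members, 81 of 102 regions, 25 of 32 gene starts and 16 of 19 introns had a fold change above 0, where 57.9%, 62.4% and 54.6% of all features tested did. Every EHF+CDX1 library exceeded every EV library at 21 of 102 member regions, where 14.9% of all regions did so, at 7 of 32 gene starts, where 14.0% did, and at 8 of 19 introns, where 14.2% did. At 2 member regions every EHF+CDX1 library lay below every EV library, for which no share of all regions is given here. These counts and shares include the features selected to be high in EHF+CDX1. All 4 such sets of introns are among the 16, and DSP, CLDN1 and PKP2 are among the 8. Without EHF+CDX1 replicate 2 the member and whole-table medians were 0.42 and 0.07 for regions, 0.46 and 0.25 for gene starts and 0.45 and -0.06 for introns.

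**Figure D2:**
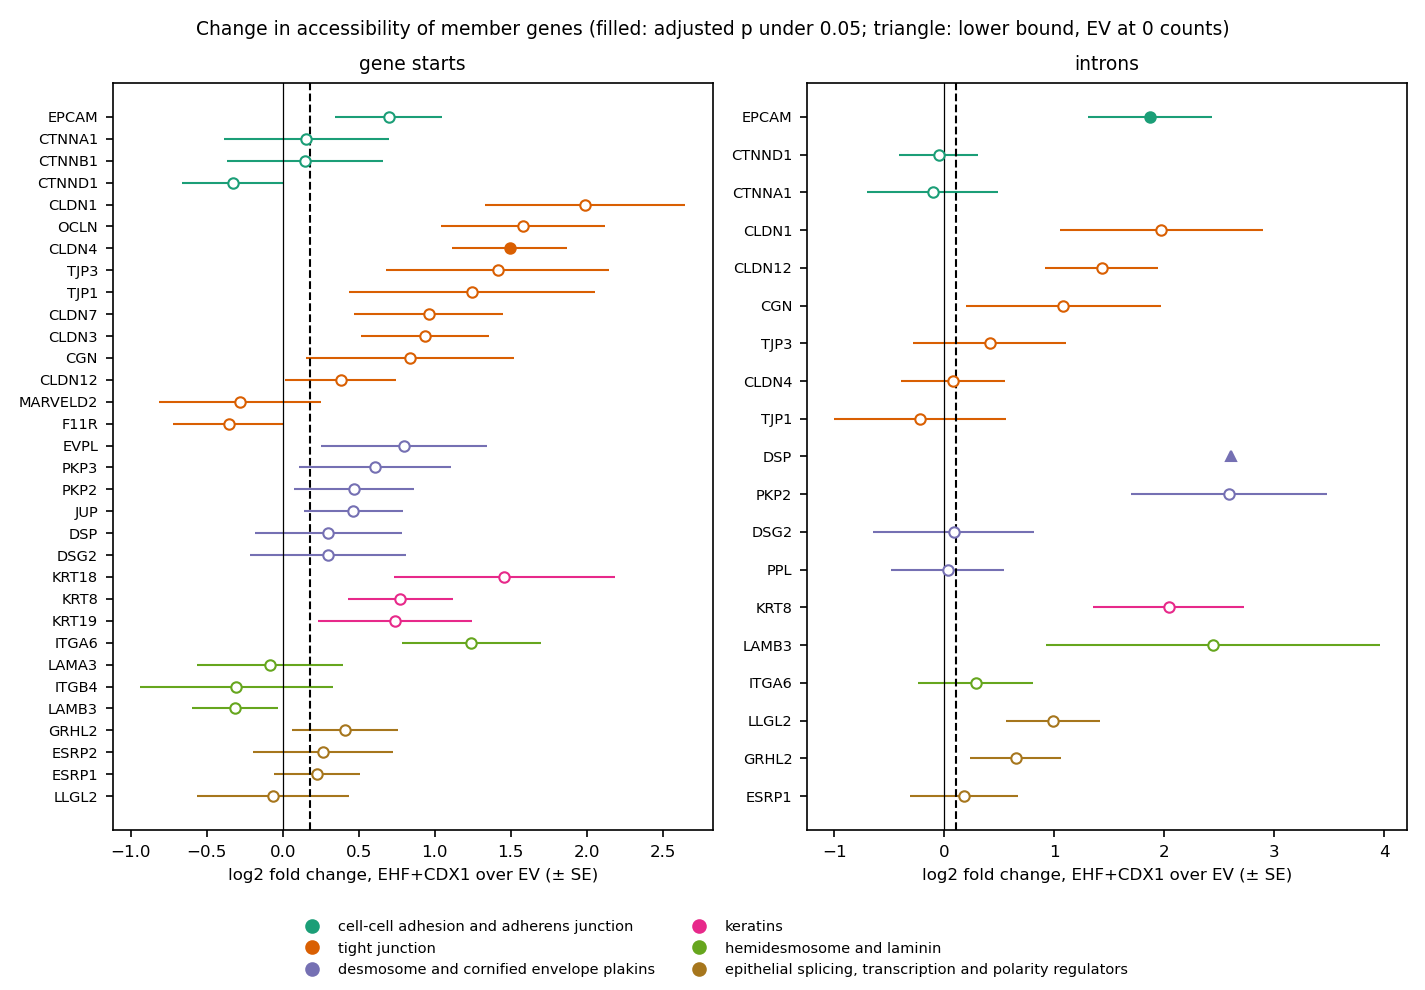
Log2 fold change of EHF+CDX1 over EV (horizontal axis, ± SE from edgeR) for pooled start regions of 32 genes and pooled intronic regions of 19 genes, coloured by role; filled symbols have an adjusted p under 0.05, the dashed line is the median of all genes, and the triangle is a lower bound for DSP, which had 0 counts in EV. Most tight junction genes lie right of the dashed line at gene starts, and CLDN4 is the filled one.

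Of the tight junction genes, CLDN4 rose at its start. CLDN4, the claudin-4 gene, had 7.63, 10.4 and 4.52 CPM over its 3 start regions in EV libraries and 21.4, 25.2 and 20.8 in the double line. The groups did not overlap, and the EHF libraries (6.42 to 7.74 CPM) and CDX1 libraries (7.73 to 15.4 CPM) also lay below every EHF+CDX1 library. The start of CLDN4 rose by a log2 fold change of 1.49 ± 0.38 (SE) against EV (adjusted p = 0.0267). Leaving out EV replicate 1, 2 or 3 raised the adjusted p to 0.075, 0.085 and 0.14, and leaving out EHF+CDX1 replicate 2 raised it to 0.14.

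CLDN1 and OCLN, which encode claudin-1 and occludin, had larger or similar estimates that did not pass. The start of CLDN1 held 0, 2.76 and 1.51 CPM in EV and 4.76, 7.03 and 8.32 in EHF+CDX1 libraries, a log2 fold change of 1.99 ± 0.66 (adjusted p = 0.106). OCLN held 1.09, 4.14 and 3.01 CPM in EV and 10.1, 7.94 and 9.16 in EHF+CDX1, a log2 fold change of 1.58 ± 0.54 (adjusted p = 0.121). Neither gene's EHF+CDX1 libraries overlapped those of EV. The CLDN1 start lies close to CLDN16, and its counts may be shared with that gene. The lowest estimate of the role was at F11R, the gene of junctional adhesion molecule A, with 18.5, 17.9 and 6.02 CPM in EV and 11.3, 12.02 and 11.7 in EHF+CDX1 (log2 fold change -0.36 ± 0.36, adjusted p = 0.711). Of 11 tight junction gene starts, 9 had a fold change above 0 and 1 passed, with a median of 0.96. TJP3 and TJP1 had 3 counts or fewer in every EV library. In EHF+CDX1 libraries TJP3 held 5, 38 and 3 counts and TJP1 held 1, 25 and 6, so most came from replicate 2. The pooled EHF+CDX1 to EV ratio of TJP3 was 3.19 (95% exact interval 1.36 to 9.13, counting error only) and 1.40 (0.427 to 4.90) without that library. That of TJP1 was 2.66 (1.03 to 8.74) and 1.47 (0.402 to 5.88).

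At the desmosome, the call was in an intron of DSP. The region in intron 4 of DSP, the gene of desmoplakin, lies 19.8 kb downstream of its start and held 0 counts in all 3 EV and all 3 EHF libraries, 0, 1 and 1 in CDX1, and 6, 29 and 9 in EHF+CDX1 libraries. Only the EHF+CDX1 libraries held more than 1 count. Against a floor of 3 counts over the EV group the pooled level was at least 6.10-fold higher, with an adjusted p of 0.0217 as a region and 0.0149 as pooled introns. DSP passed the filter on low values through the EHF+CDX1 libraries alone, so it was selected to be high there. The p-values describe it without being independent support. With no low-count filter they were 0.0219 and 0.0162. As a region the adjusted p became 0.078, 0.16 and 0.073 when EV replicate 1, 2 or 3 was left out, and 0.14 when EHF+CDX1 replicate 2 was. As pooled introns it was 0.11 without EV replicate 2, 0.051 without EV replicate 3 and 0.094 without EHF+CDX1 replicate 2. The start of DSP held 6.54, 6.90 and 4.52 CPM in EV and 8.33, 7.71 and 6.66 in EHF+CDX1 libraries, which overlapped, with a log2 fold change of 0.30 ± 0.48 (adjusted p = 0.830). No test compared the intron with the start.

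Other desmosomal genes did not pass. All 6 tested starts had a fold change above 0, from 0.30 at DSG2, the desmoglein-2 gene, to 0.80 at EVPL, the envoplakin gene, with a median of 0.47. EVPL held 7.63, 2.07 and 3.01 CPM in EV and 8.92, 6.58 and 5.83 in EHF+CDX1, and DSG2 6.54, 4.14 and 6.02 against 8.33, 5.90 and 5.83. Both pairs of groups overlapped. The introns of PKP2, the plakophilin-2 gene, held 1 count in each EV library and 8, 44 and 4 in EHF+CDX1 (adjusted p = 0.0631). The pooled ratio was 7.76 (95% exact interval 2.52 to 38.7), and 4.21 (1.13 to 23.2) without replicate 2. The intronic regions of PPL, the periplakin gene, lie at the start of its neighbour SEC14L5, and had a log2 fold change of 0.03 ± 0.51.

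EPCAM, an epithelial adhesion molecule that marks colonic epithelium, also moved in its introns. Its 3 intronic regions together held 0, 5.52 and 4.52 CPM in EV and 9.52, 17.7 and 10.8 in EHF+CDX1 libraries, and the single lines held 2.37 to 5.70 CPM. Every EHF+CDX1 library lay above the other 9. Of the intronic regions, 1 held 3, 20 and 3 EHF+CDX1 counts and another 4, 20 and 3. Both passed the filter on low values through EHF+CDX1 libraries alone, so they were selected to be high there. The pooled introns also passed through other libraries. The introns of EPCAM rose by 1.87 ± 0.57 (log2, SE) against EV (adjusted p = 0.0333), which became 0.17, 0.058 and 0.067 when EV replicate 1, 2 or 3 was left out, and 0.28 when EHF+CDX1 replicate 2 was. The estimate itself was 1.34 without EV replicate 1, which held 0 counts, and 2.71 without EV replicate 2. Its start regions held 16.3, 10.4 and 12.05 CPM in EV and 16.1, 26.8 and 16.6 in EHF+CDX1, groups that overlapped, with a log2 fold change of 0.70 ± 0.35 (adjusted p = 0.340). The catenin genes lay lower. CTNND1 starts held 9.81, 23.5 and 24.1 CPM in EV and 14.9, 16.3 and 14.1 in EHF+CDX1 (-0.33 ± 0.34, adjusted p = 0.714), and CTNNB1 and CTNNA1, of beta- and alpha-catenin, had log2 fold changes of 0.14 ± 0.51 and 0.16 ± 0.54.

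Of the keratins none passed, and all 3 tested starts had a fold change above 0. The start regions of KRT8 held 14.2, 11.7 and 9.04 CPM in EV and 15.5, 23.6 and 20.8 in EHF+CDX1 libraries, without overlap (0.77 ± 0.35, adjusted p = 0.275). Those of KRT19 held 6.54, 3.45 and 6.02 against 7.73, 7.71 and 10.8, also without overlap (0.74 ± 0.51, adjusted p = 0.521). The 2 intronic regions of KRT8 held 4.36, 0.69 and 1.51 CPM in EV and 10.1, 8.84 and 6.66 in EHF+CDX1 (2.04 ± 0.69, adjusted p = 0.0582). KRT18, with 1.91 ± 2.23 (SD) CPM in EV and 5.65 ± 1.97 in EHF+CDX1, had a log2 fold change of 1.46 ± 0.73 (adjusted p = 0.338). The only KRT18 region is also a start region of KRT8, so the starts of KRT8 and KRT18 are not independent.

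At the hemidesmosome, ITGA6, the integrin alpha-6 gene, was the 1 of 4 tested starts with a fold change above 0, and the median was -0.20. ITGA6 held 7.63, 3.45 and 6.02 CPM in EV and 11.9, 15.4 and 9.99 in EHF+CDX1, without overlap (1.24 ± 0.46, adjusted p = 0.169). LAMB3 held 21.8, 35.2 and 28.6 CPM in EV and 20.2, 24.0 and 25.8 in EHF+CDX1, with overlap (-0.32 ± 0.28, adjusted p = 0.659). LAMA3, another laminin-332 chain, and ITGB4, the integrin partner of ITGA6, had log2 fold changes of -0.08 ± 0.48 and -0.31 ± 0.63. In introns, ITGA6 had a log2 fold change of 0.29 ± 0.52 and LAMB3 a pooled ratio of 7.90 (95% exact interval 1.26 to 328) over a single EV count, and 4.21 (0.416 to 207) without EHF+CDX1 replicate 2. No difference between the roles was tested.

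Among the regulators, GRHL2, a grainyhead-like factor that maintains junction gene expression, held 16.3, 15.2 and 9.04 CPM at its starts in EV and 14.3, 19.3 and 22.5 in EHF+CDX1, with overlap (0.41 ± 0.35, adjusted p = 0.629). LLGL2, a basolateral polarity gene, held 7.63, 4.83 and 7.53 CPM at its start in EV and 5.95, 7.26 and 4.16 in EHF+CDX1 (-0.06 ± 0.50, adjusted p = 0.969). Its 3 intronic regions held 11.98, 6.90 and 12.05 CPM against 19.0, 24.7 and 14.1, without overlap (0.99 ± 0.43, adjusted p = 0.144). ESRP1 and ESRP2, both epithelial splicing factors, had log2 fold changes of 0.23 ± 0.28 and 0.26 ± 0.46 at their starts.

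**Figure D3:**
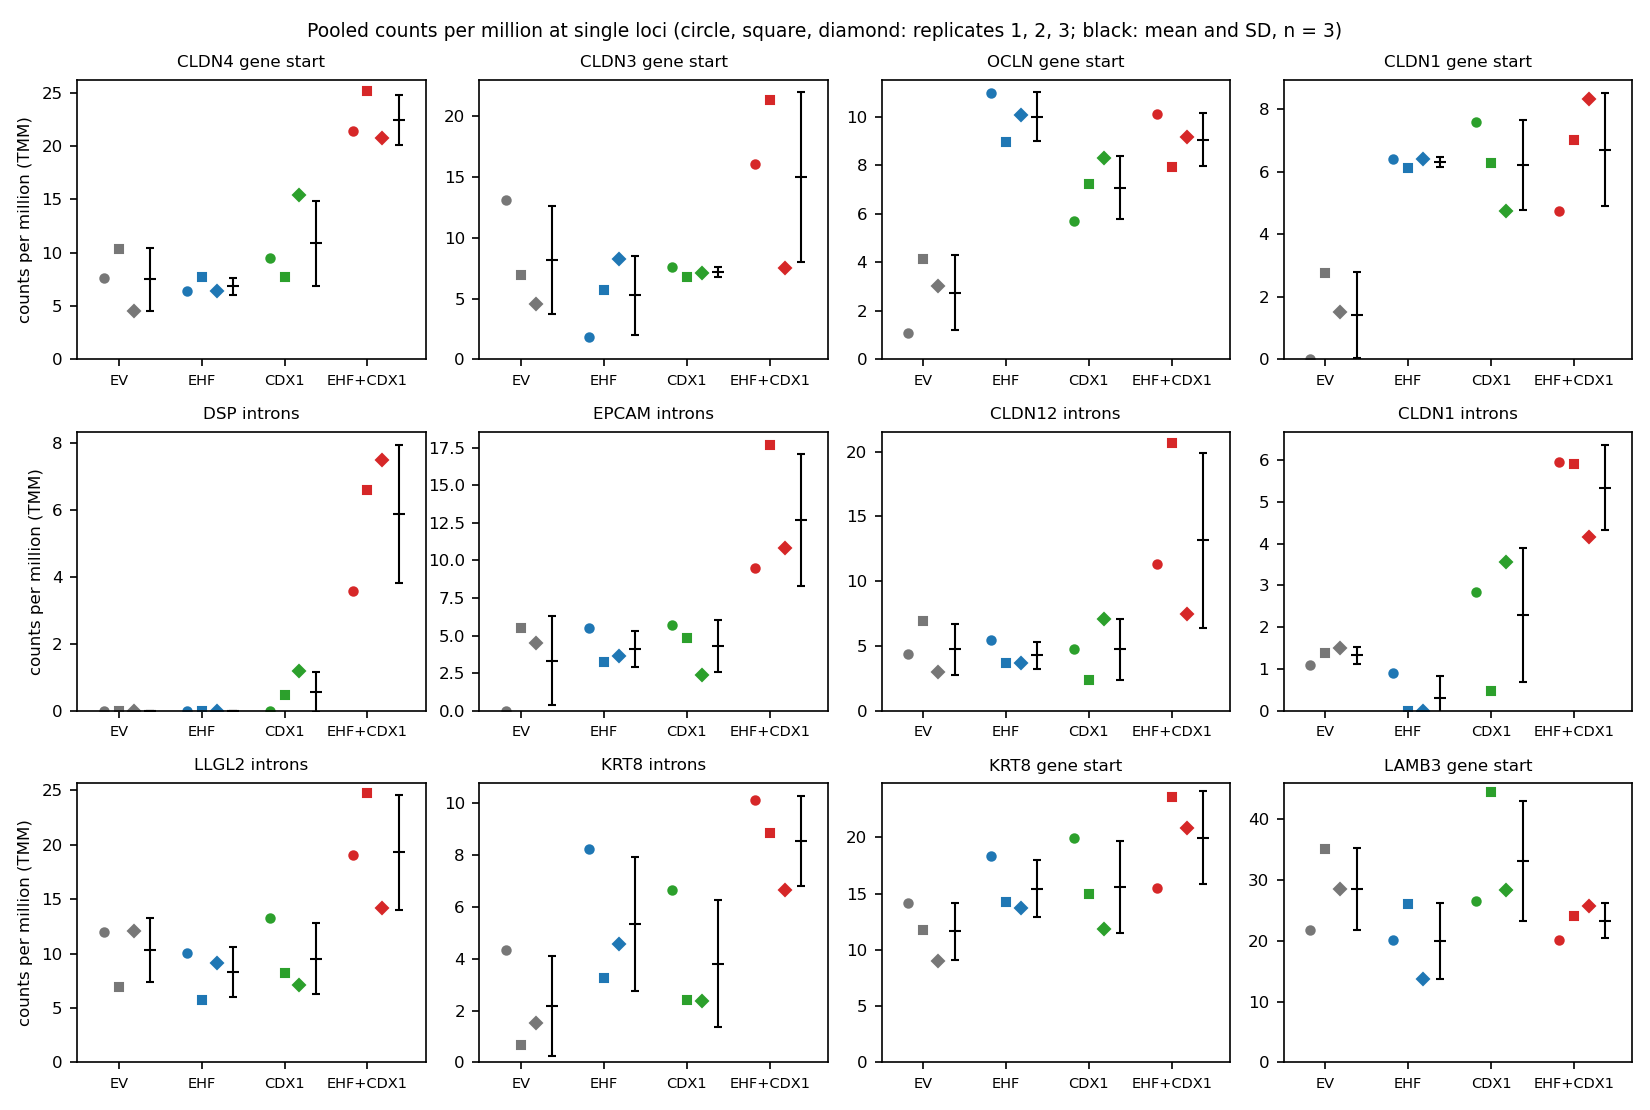
Pooled TMM-scaled CPM (vertical axis, from 0) at 12 single loci in each library, with mean and SD (n = 3) in black. CLDN4 starts and the introns of DSP and EPCAM are above the other 9 libraries only in EHF+CDX1, whereas CLDN1 and OCLN starts are lower in EV than in all 3 other groups.

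Each factor alone was compared with EV in the same fit, and these comparisons share the EV libraries with the one above. No member was called in EHF against EV, where 0.00995% of regions, 0.0107% of gene starts and 0% of introns of all those tested were called, or in CDX1 against EV, where 0% of regions, 0.0107% of gene starts and 0% of introns were. Members with an unadjusted p under 0.05 numbered 8 regions, 2 gene starts and 0 introns for EHF and 6, 2 and 0 for CDX1, and DESeq2 called 0. Member medians lay nearer those of all features. For EHF the member and whole-table medians were 0.11 and 0.02 (regions), 0.21 and 0.15 (gene starts) and -0.05 and -0.04 (introns), and for CDX1 0.11 and 0.00, 0.25 and 0.07, and -0.01 and -0.04. Scaling by library size alone moved the median of all regions to -0.50 in EHF and -0.65 in CDX1 and that of the members to -0.40 and -0.60, so the sign of these medians depends on the scaling.

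The gene starts with an unadjusted p under 0.05 in the single lines were OCLN and CLDN1 in both. OCLN held 11, 8.96 and 10.1 CPM in EHF and 5.70, 7.25 and 8.29 in CDX1 libraries, all above the 3 EV libraries, with log2 fold changes of 1.73 ± 0.55 and 1.25 ± 0.58 over EV. CLDN1 held 6.42, 6.11 and 6.41 CPM in EHF and 7.60, 6.28 and 4.74 in CDX1 libraries, again all above EV, and its log2 fold change was 1.91 in each line, 1.40 in each without EV replicate 1 (unadjusted p = 0.0529 and 0.0558 in edgeR, adjusted p = 0.714 and 0.994) and 3.15 in each without EV replicate 2. Those of OCLN were 1.38 and 0.90 without EV replicate 1 and 2.32 and 1.84 without EV replicate 2. The adjusted p was 0.873 for both genes in EHF and 0.999 in CDX1, so neither passed, and with library size scaling the estimates were 1.22 and 0.59 for OCLN and 1.43 and 1.34 for CLDN1. EHF+CDX1 starts of CLDN1 and OCLN had log2 differences of 0.09 ± 0.47 and -0.15 ± 0.41 from EHF. These errors are too wide to call the levels alike.

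The double line was next set against each single line. Against EHF, 4 member regions (in DSP, CLDN4, CLDN1 and LLGL2), 2 gene starts (CLDN4 and CLDN3) and 5 gene introns (DSP, EPCAM, CLDN12, CLDN1 and LLGL2) were called, all higher in EHF+CDX1. Of all features, 4.35% of regions, 1.61% of gene starts and 7.93% of introns were called, so the members' share was near this for regions, and above it for gene starts and introns, where it rests on 2 and 5 genes. The DSP and CLDN1 calls, 2 of the regions and 2 of the introns, were at features that passed the filter on low values through EHF+CDX1 libraries alone. Some of the regions pooled in the EPCAM and CLDN12 introns were of this kind too. DESeq2 called 1 at each level, and without EHF+CDX1 replicate 2 the count was 0 at each level. Against CDX1, 0 regions, 0 gene starts and 1 set of introns (CLDN12) were called, where 2.62%, 1.22% and 4.49% of all features were, with 16, 5 and 8 at an unadjusted p under 0.05 and 0 by DESeq2. The member and whole-table medians were 0.36 and 0.09 (regions), 0.25 and 0.00 (gene starts) and 0.76 and 0.07 (introns) against EHF, and 0.60 and 0.14, 0.37 and 0.10, and 1.06 and 0.12 against CDX1. Without EHF+CDX1 replicate 2 they were 0.31 and 0.01, 0.10 and 0.07, and 0.67 and -0.08 against EHF. The gene-start medians against EHF then lay close together. Against CDX1 the medians without that library were 0.49 and 0.05, 0.38 and 0.16, and 0.84 and -0.04.

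**Figure D4:**
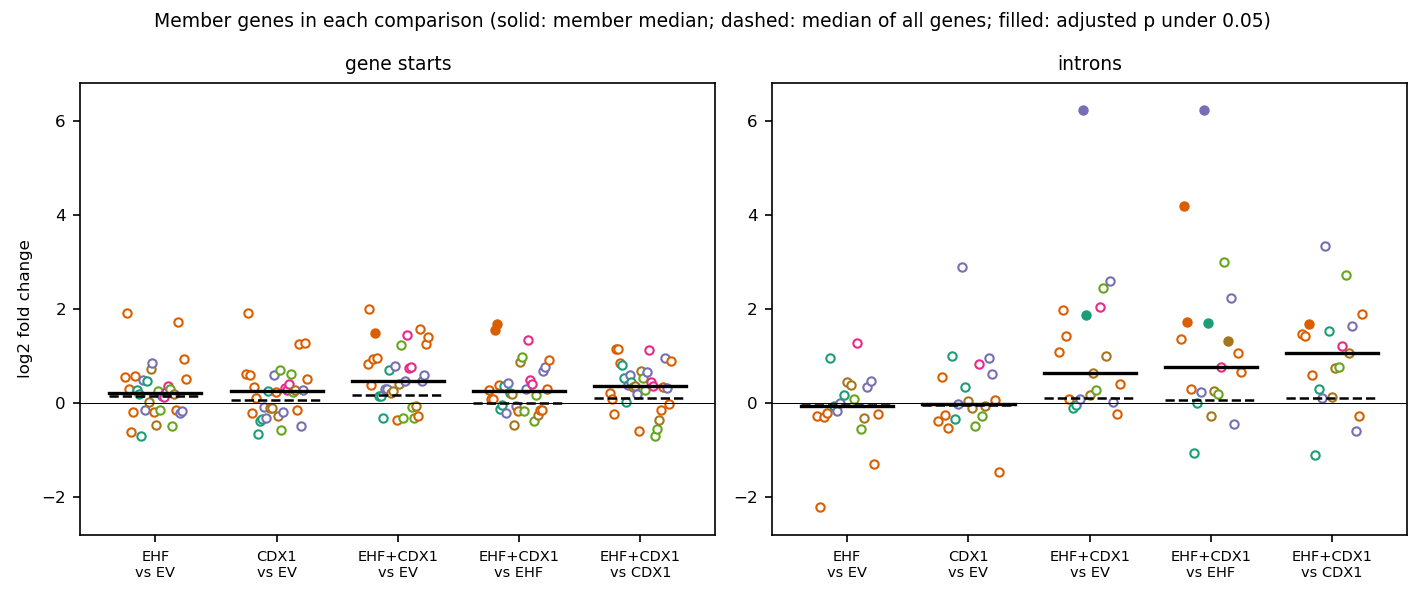
Log2 fold changes (vertical axis) of the member gene starts and introns in 5 comparisons, 1 point per gene coloured by role as in the plot of fold changes by role; filled points have an adjusted p under 0.05, the solid bar is the member median and the dashed bar the median of all genes. In introns the solid bar stands at 0.65, 0.76 and 1.06 in the 3 comparisons of EHF+CDX1, and at -0.05 and -0.01 in the single lines. The DSP estimates over EV and EHF rest on groups at 0 counts.

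At CLDN4, the region shown above with its CDX core match lies 2.62 kb upstream of the start of the canonical transcript, and close to the start of another. It held 4, 6 and 2 counts in EHF and 18, 55 and 11 in EHF+CDX1 libraries. It rose from 2.65 ± 0.934 to 10.8 ± 1.66 CPM (SD, n = 3), a log2 difference of 2.05 ± 0.54 (adjusted p = 0.0138). The adjusted p was 0.10 without EHF replicate 2, 0.067 without EHF replicate 3 and 0.18 without EHF+CDX1 replicate 2. Pooled CLDN4 starts differed by 1.69 ± 0.36 from EHF (adjusted p = 0.00272, and 0.058 without EHF+CDX1 replicate 2) and by 1.15 ± 0.35 from CDX1 (adjusted p = 0.0902).

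At CLDN1, the call was in the first intron. The intronic region, 2.58 kb downstream of the start and with the AP-1 and E-box matches shown above, held 1, 2 and 1 counts in EV, 1, 0 and 0 in EHF, 3, 1 and 3 in CDX1 and 10, 26 and 5 in EHF+CDX1. The pooled EHF+CDX1 to EHF ratio was 26.1 with a 95% exact interval of 4.43 to 1055, wide because EHF held 1 count in all. Its adjusted p as a region was 0.0132, and 0.14, 0.058 and 0.11 without EHF replicate 2, EHF replicate 3 and EHF+CDX1 replicate 2. As introns the adjusted p was 0.0109, and 0.10, 0.051 and 0.081 without those libraries. Like DSP, it passed the filter on low values through EHF+CDX1 libraries alone. The start of the gene, with its log2 difference of 0.09 ± 0.47 from EHF, was not called, and no test compared it with the intron.

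CLDN3, the claudin-3 gene next to CLDN4 on chromosome 7, held 1.83, 5.70 and 8.24 CPM at its starts in EHF and 16.1, 21.3 and 7.49 in EHF+CDX1. The groups overlapped, and EHF+CDX1 replicate 3 lay among the EHF libraries. The log2 difference was 1.56 ± 0.42 (adjusted p = 0.0309). It became 0.22 and 0.082 when EHF replicate 1 or 2 was left out, and 0.078 and 0.49 when EHF+CDX1 replicate 1 or 2 was. Against EV, at 13.1, 6.90 and 4.52 CPM, the difference was 0.94 ± 0.42 (adjusted p = 0.278).

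CLDN12, a claudin gene with 4 intronic regions, held 5.50, 3.67 and 3.66 CPM over its introns in EHF, 4.75, 2.42 and 7.11 in CDX1 and 11.3, 20.6 and 7.49 in EHF+CDX1. Every EHF+CDX1 library was above the others, with replicate 3 only slightly so. The introns of CLDN12 rose by 1.72 ± 0.50 against EHF (adjusted p = 0.0196) and 1.68 ± 0.51 against CDX1 (adjusted p = 0.0398). Against EHF the adjusted p was 0.11, 0.073 and 0.36 without EHF replicate 2, EHF replicate 3 and EHF+CDX1 replicate 2. Against CDX1 it was 0.10, 0.29 and 0.44 without CDX1 replicate 1, CDX1 replicate 2 and EHF+CDX1 replicate 2. Most of the counts came from EHF+CDX1 replicate 2, with 91 against 19 and 9 in replicates 1 and 3. Of the intronic regions, 1 held 6, 25 and 0 EHF+CDX1 counts and another 6, 28 and 5. Both passed the filter on low values through EHF+CDX1 libraries alone, so they were selected to be high there.

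LLGL2 introns held 10.1, 5.70 and 9.15 CPM in EHF and 19.0, 24.7 and 14.1 in EHF+CDX1, without overlap, and rose by 1.31 ± 0.42 (adjusted p = 0.0372). Leaving out EHF replicate 1, 2 or 3 gave an adjusted p of 0.064, 0.22 and 0.077, and leaving out EHF+CDX1 replicate 1 or 2 gave 0.051 and 0.27. Its called region in intron 3 held 2, 3 and 0 counts in EHF and 10, 41 and 4 in EHF+CDX1, a pooled ratio of 7.0 (95% exact interval 2.82 to 22.4, adjusted p = 0.0389), or 4.51 (1.53 to 16.0) without EHF+CDX1 replicate 2. That p became 0.058, 0.13 and 0.14 when EHF replicate 1, 2 or 3 was left out, and 0.063 and 0.38 when EHF+CDX1 replicate 1 or 2 was.

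DSP and EPCAM introns were called against EHF as well. For DSP the pooled level was at least 9.33-fold higher than in EHF, against a floor of 3 counts over the group. Its adjusted p was 0.00334 for introns and 0.0050 for the region, with the limit of the filter given above. The first was 0.060 without EHF+CDX1 replicate 2, and the second 0.063 without that library and 0.055 without EHF replicate 2. Against CDX1, with 2 counts in all, the pooled ratio of DSP was 11.96 (95% exact interval 3.12 to 101.9, adjusted p = 0.0564). EPCAM introns rose by 1.70 ± 0.52 against EHF (adjusted p = 0.0303, and 0.16, 0.084 and 0.32 without EHF replicate 2, EHF replicate 3 and EHF+CDX1 replicate 2) and differed by 1.54 ± 0.52 from CDX1 (adjusted p = 0.0649).

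Whether the double line departed from the sum of the single lines was tested as an interaction. No member passed, where 0.123% of regions, 0.0427% of gene starts and 0% of introns of all genes did. At an unadjusted p under 0.05 there were 10 regions, 5 gene starts and 4 introns, and DESeq2 called 0. CLDN4 starts had an interaction of 1.34 ± 0.57 (adjusted p = 0.548) and CLDN3 starts one of 1.78 ± 0.65 (adjusted p = 0.423). CLDN1 had estimates of opposite sign, -1.82 ± 0.85 at its start (adjusted p = 0.600) and 3.62 ± 1.67 in its intron (adjusted p = 0.396). The smallest unadjusted p among member introns was at CTNNA1, with an interaction of -2.07 ± 0.78 (adjusted p = 0.268). CTNNA1 introns held 3.57, 3.86 and 4.16 CPM in EHF+CDX1, under the 7.33 to 9.48 of the single-line libraries. The log2 differences were -1.07 ± 0.52 from EHF (adjusted p = 0.199) and -1.11 ± 0.53 from CDX1 (adjusted p = 0.207). EV libraries, at 1.51 to 5.52 CPM, overlapped EHF+CDX1.

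The letters of the sequences were also counted over the member regions of 151 bases, which number 70, here classed by the gene starts and introns of all protein-coding genes. The E-box CAGGTG, a site of repressors of epithelial genes such as SNAI1 and ZEB1, was in 18 of 37 start regions (48.6%), where 14.5% of the 4882 start regions of that length held it. Their median GC content was similar, at 69.5% and 68.2%. In intronic member regions it was in 7 of 26 (26.9%) against 17.3% of all intronic ones. The ETS core was in 0 of the 37 start regions, against 10.3% of all, and in 2 of the 26 intronic ones, against 7.69%. The CDX core was in 4 of 37 and 9 of 26, against 5.16% and 23.7%. The grainyhead-like letters were in 1 of 37 and 0 of 26, against 1.19% and 3.79%, and AP-1 in 5 of 37 and 7 of 26, against 5.18% and 27.4%. These shares describe the letters and were not tested, and neighbouring regions of a gene are not independent.

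Of 40 other gene names of epithelial junctions, keratins and polarity (MPP5 and PALS1 name the same gene), 23 had tested starts and 16 tested introns. In EHF+CDX1 against EV, 2 starts rose, those of PERP, a desmosomal p53 effector (log2 fold change 2.06 ± 0.57, adjusted p = 0.0436), and of KLF5, an epithelial transcription factor (1.23 ± 0.32, adjusted p = 0.0278), and the introns of CDH17, an intestinal cadherin, rose (1.94 ± 0.60, adjusted p = 0.0391). None fell. Without EHF+CDX1 replicate 2 the adjusted p of these 3 was 0.179, 0.143 and 0.277. Without EV replicates 1, 2 and 3 it was 0.0531, 0.381 and 0.13 for PERP and 0.0793, 0.163 and 0.0963 for CDH17, and it was 0.177 and 0.139 for KLF5 without EV replicates 2 and 3. It was also 0.0538 and 0.0712 for PERP without EHF+CDX1 replicates 1 and 3, 0.059 without CDX1 replicate 3, and 0.0677 for CDH17 without EHF+CDX1 replicate 1. The median log2 fold change of the list was 0.11 for starts and -0.09 for introns, near or under the medians of all genes. Against EHF, CDH17 was called at its start and in its introns and PKP1, the plakophilin-1 gene, in its introns, with adjusted p-values of 0.297, 0.204 and 0.203 without EHF+CDX1 replicate 2 and losses without single EHF libraries too, and 0 of this list were called in the other comparisons. Of the mesenchymal genes, 4 starts and 5 introns were tested and 0 were called. Their start levels summed to 19.6 to 30.1 CPM for EV, 26.1 to 41.2 for EHF, 19.3 to 38.004 for CDX1 and 24.1 to 26.5 for EHF+CDX1, which overlapped, but the estimates had both signs. Only SNAI1 of the 4 had an unadjusted p under 0.05. SNAI1, a repressor of E-cadherin, held 4.36, 1.38 and 4.52 CPM at its start in EV and 13.1, 9.30 and 8.32 in EHF+CDX1 (1.71 ± 0.57, adjusted p = 0.107), while its relative SNAI2 had a log2 fold change of -0.87 ± 0.47 and the collagen genes COL1A1 and COL1A2 -0.66 ± 0.41 and 1.11 ± 0.81. Of the epithelial markers outside the list of 38, CDX2 and VIL1, the villin gene, had log2 fold changes of 1.19 ± 0.52 and 2.05 ± 0.99 (adjusted p = 0.261 and 0.317). VIL1 held 2.18, 0 and 1.51 CPM in EV and 5.35, 6.35 and 0 in EHF+CDX1, which overlapped. CDX2 held 5.45, 4.14 and 3.01 CPM in EV and 7.14, 14.3 and 5.83 in EHF+CDX1, without overlap. CDX1 replicate 1, at 15.2 CPM of CDX2, lay above every EHF+CDX1 library. The 5 epithelial marker starts summed to 25.6 to 42.5 CPM for EV, 34.6 to 50.4 for EHF, 37.7 to 49.4 for CDX1 and 47.6 to 76.9 for EHF+CDX1. That sum holds EPCAM, KRT8 and KRT18, which are members, and counts the region shared by KRT8 and KRT18 under both. Among the blood cell genes, 1 had tested introns, and it was not called.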

How the data were processed

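ATAC-seq libraries of 12 HCT116 derivatives (4 groups, 3 each) were grouped by their titles. Alignment by the authors used Subread 2.0.0 and the hg38 build with unique placements only, and HOMER 4.7 peaks, merged to 1 set, were counted by featureCounts 2.0.0 (versions from the submitters' processing notes). The deposited table holds raw counts per region, and the authors' log2 values are log2 CPM of 27827 retained regions, scaled to each library's total, which were used only in an alternative. Duplicate removal and Tn5 shifting are not given in the sources used here, and PCR copies cannot be told from separate molecules, so intervals and floors cover counting error only.

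Regions were assigned with GENCODE 44 (python 3.11.15, pysam 0.24.0). Raw counts were also pooled per protein-coding gene over start regions and, apart, over intronic ones, and scaled with the factors of the region table. Counts were tested in R 4.3.3 with edgeR 4.0.16 (TMM, robust quasi-likelihood test, two-sided, a CPM minimum of 3 reached by 1 or more libraries, all 12 libraries in 1 fit, Benjamini-Hochberg over all features, threshold 0.05), which left 30154 regions, 9359 gene starts and 3582 gene introns. The CPM minimum used library totals before TMM scaling, with mitochondrial and introduced counts included. TMM factors ran from 0.345 in CDX1 replicate 3 to 2.61 in EHF+CDX1 replicate 2. In scaled CPM the minimum was therefore lowest for EHF+CDX1 replicate 2. No column lacked a sample. Adjusted p-values in the text are from this edgeR test. Alternatives used DESeq2 1.42.0 and limma 3.58.1 and are given in the closing section. On simulated counts with 4-fold changes the test for EHF+CDX1 against EV recovered 42% of 100 changed regions among 30154, 72% of 100 gene starts among 9359 and 81% of 100 introns among 3582. At 2-fold it recovered 3%, 3% and 15%. The simulation used a single fixed spread at all levels and changed only features above a minimum mean count. In the data the estimated coefficient of variation beyond counting error was 0.335 for regions, 0.226 for gene starts and 0.318 for introns. The simulated spread was close to that of regions and introns but above that of gene starts, so the gene-start recoveries do not describe these data.

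Named with values for each library are members called in any comparison, the highest and lowest start of each role in EHF+CDX1 against EV among those with at least 100 counts, and CDH1, EPCAM, KRT8 and GRHL2. OCLN, PKP2, KRT18, KRT8 introns and CTNNA1 introns were added after their values were seen. The members and lists were chosen with earlier results of these data known.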

Additional observations from a re-analysis of the deposited data

How the results depend on the processing

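The counts of members called were small and moved with the processing, and the cause was not tested. In EHF+CDX1 against EV the 1 region became 0 with DESeq2, 0 with library size scaling, 0 with limma-trend on the deposited log2 CPM, and 4 with limma-voom and quantile normalisation. The 1 gene start became 0 with DESeq2, which gave it no adjusted p, 0 with library size scaling and 2 with a start window of 2.5 kb, and the 2 gene introns became 0 with DESeq2 and 0 with library size scaling. Against EHF, the 4 regions became 1, 1 and 0 with DESeq2, library size scaling and limma-trend, the 2 gene starts 1 and 0 with DESeq2 and library size scaling, and the 5 introns 1 and 1, while limma-voom gave 5, 2 and 7. Against CDX1, limma-voom gave 4 regions, 1 gene start and 3 introns, and DESeq2 and library size scaling gave 0 introns.

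Same-numbered libraries of different groups had correlated deviations of 0.02 to 0.42 over 18 pairs, of which 14 exceeded 0.1, and differently numbered ones -0.26 to 0.10 over 36 pairs. Each of the 12 libraries correlated best with one of its own number, a hint of pairing from the data, but the labels name no shared day or batch and 4 pairs were under 0.1, so the block is an alternative here. With the replicate number as a block, the member counts against EV were 3 regions, 1 gene start and 5 introns, against EHF 5, 2 and 6, and against CDX1 1, 1 and 4. Called with the block and not without it were, against EV, the introns of KRT8 (adjusted p = 0.015), CLDN12 (0.022) and PKP2 (0.0374), and, against CDX1, CLDN4 starts (0.02) and the introns of EPCAM (0.0161), LLGL2 (0.0343) and DSP (0.037). Against EHF they were PKP2 introns (0.0331) and the region of CLDN15 (0.0396). Single regions gained were those of CLDN4 (0.0414) and JUP (0.0463) against EV and of CLDN4 (0.0268) against CDX1.

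Leaving out 1 library at a time gave 0 to 1 regions, 0 to 1 gene starts and 0 to 5 introns against EV, 0 to 6, 0 to 2 and 0 to 6 against EHF, and 0 to 2, 0 and 0 to 2 against CDX1. Without EHF+CDX1 replicate 2 each of these counts was 0, and without EHF replicate 2 those against EHF were 0, 1 and 1. The single-line and interaction counts of 0 stayed 0 in each alternative run. The start of LLGL2, not called, ran from -0.30 to 0.07 in log2 fold change over its alternatives and changed sign without EV replicate 1 (0.072) and without EHF+CDX1 replicate 3 (0.073). The member median over EV was computed with DESeq2, library size scaling, limma-voom, limma-trend and without EHF+CDX1 replicate 2, stayed above 0 in each, and was lowest, at 0.24 for regions, in limma-trend on the deposited log2 CPM, where the median of all regions was -0.14. The median member region held 2 to 5 counts in an EV library, and simulated 2-fold changes were mostly not detected at this depth. Over all alternatives the adjusted p of the starts of CLDN4 ran from 0.00472 to 1.0 against EV and from 0.000172 to 0.277 against EHF, that of DSP introns from 0.0062 to 0.245 and from 0.00156 to 0.0603, and that of EPCAM introns from 0.00494 to 0.605 and from 0.00542 to 0.321. Against EHF it ran from 0.00311 to 0.364 for CLDN12 introns, from 0.00515 to 0.104 for CLDN1 introns, from 0.00597 to 0.492 for CLDN3 starts and from 0.00547 to 0.27 for LLGL2 introns.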
